A study of Mus musculus with 12 samples.

Results

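The comparison described here set mouse regulatory T cells (Tregs) carrying 1G12t, an orthogonal IL-2 tethered to its own receptor, against Tregs carrying the empty vector (EV), both cultured without IL-2. It covered 6 of the 12 libraries of the series, 3 of each group, and the 15043 of 55228 listed genes that averaged 1 TPM or more over those 12 (TPM, a transcript's share of a library corrected for its length). The libraries were chosen by group label and the genes by mean level. That mean includes the 1G12t libraries, so a gene can pass through its level there alone, as Gm24155 did.

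Lymph node cells of 16 NOD.Foxp3-GFP mice were pooled, split into 3 parts, sorted as Foxp3-GFP+CD25+ Tregs on separate machines and activated separately. The 3 replicates of each group are therefore separate cultures of a single pool of mice, and p-values measure the spread between cultures rather than between animals. Each culture was divided on day 2 and transduced with 1G12t, with 3A10t, a tether built on another orthogonal IL-2, or with EV. On day 4 the 1G12t cells, the 3A10t cells and part of the EV cells (EV no IL-2) were washed free of IL-2 and kept for another 5 days without it, while the rest of the EV cells stayed in mouse IL-2 (EV+IL-2). On day 9 cells of all 4 groups were sorted for Thy1.1, the surface reporter of the vectors, so each library was made from sorted transduced cells. The study's methods give an age range for NOD Treg donors in general and none for this pool. The cells are NOD cells that carry the GFP reporter in every group, and the integration sites and copy numbers of the vectors were not measured here.

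IL-2 signals through a receptor of the α chain CD25, the β chain and the common γ chain. The β and γ chains carry the kinases JAK1 and JAK3, which phosphorylate STAT5, and STAT5 then drives genes such as Cish, the Socs genes, Il2ra and Bcl2. Tregs make almost no IL-2 of their own and depend on it for survival and for high CD25. In an orthogonal pair, the cytokine and the β chain are mutated with the aim that they bind each other and leave the natural partners alone. The 1G12 cytokine does not fully meet this aim. The study reports that at high concentrations it also signals through the natural receptor. In 1G12t the mutated cytokine is joined to the mutated β chain by a linker taken from CD25, so a transduced cell carries ligand and receptor in a single chain. The study asked whether 1G12t cells showed signs of negative feedback through the Socs and Cish genes, of receptor endocytosis and degradation, of silencing, or of death.

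The construct sequences show how near the encoded proteins are to the mouse ones. Counted from 1 at the first of the 149 residues of mature mouse IL-2, 1G12 differs at 6 positions, Q30N, M33V, D34L, Q36T, E37H and R41K. The cytokine of 3A10t also has 6 changes, of which Q30N, M33V and D34L are shared, and the change from 1G12 to 3A10 reads E29D, T36K, H37A and K41R. The orthogonal β chain differs from the mouse chain at 2 of the 513 residues compared, H134D and Y135F. RNA of the construct that matches the mouse sequence could thus be assigned to the mouse genes Il2 and Il2rb, and in these values vector and chromosomal RNA cannot be told apart. In bulk RNA, moreover, fewer cells with a transcript and less of it per cell cannot be told apart.

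All 3 genes whose coding sequence the vectors carry separated the groups. Values are TPM divided by a library factor (scaled TPM), and the test was limma on log2(scaled TPM + 1) over all 12 libraries. Il2 (chr3:37120523-37125959, minus strand) was at 0.491, 0.302 and 0.223 in the EV no IL-2 libraries and at 24.9, 16.9 and 12.9 in the 1G12t libraries. It rose by 3.80 on the log2 scale (SE 0.23, 95% interval 3.30 to 4.31, adjusted p = 4.02e-05). Il2 was below 1 in every EV no IL-2 library, and its 1G12t values counted in the filter on mean TPM. The tether also carries its coding sequence, so this p is no independent support. On the linear scale the mean was 53.8 times that of EV no IL-2, since adding 1 understates the change of a gene this low. Il2rb (chr15:78479256-78495271, minus strand) was at 289, 259 and 250 without the tether and at 431, 363 and 387 with it, 1.48 times the mean level. Every 1G12t library lay above every EV no IL-2 library, and the log2 difference of 0.56 (SE 0.09, 95% interval 0.36 to 0.77) met the threshold the authors used, an unadjusted p below 0.01 with a log2 difference beyond 0.25, but not the adjusted one (adjusted p = 0.298). The Il2rb level of 1G12t cells was not above that of EV+IL-2 cells, whose vector holds no β chain and which were at 460, 472 and 428.

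Thy1 (chr9:44043384-44048579, plus strand), the gene of the reporter used for sorting, was at 3475, 3191 and 3193 in EV no IL-2 and at 261, 182 and 185 in 1G12t. It fell by 3.99 on the log2 scale (SE 0.13, 95% interval -4.28 to -3.69, adjusted p = 1.82e-07), to 0.0637 times the EV mean. RNA of the vector's Thy1.1 and of the cells' own Thy1 cannot be told apart in this value. The level went with the vector and not with the IL-2 supply. EV+IL-2 cells held 3266, 3477 and 3111, and 3A10t cells held 222, 259 and 206. Between 1G12t and 3A10t none of the 3 vector genes differed at the adjusted threshold. The differences, 1G12t minus 3A10t, were -0.48 for Il2, 0.09 for Il2rb and -0.14 for Thy1 on the log2 scale, with a 95% interval of -0.44 to 0.15 for Thy1.

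**Figure D1:**
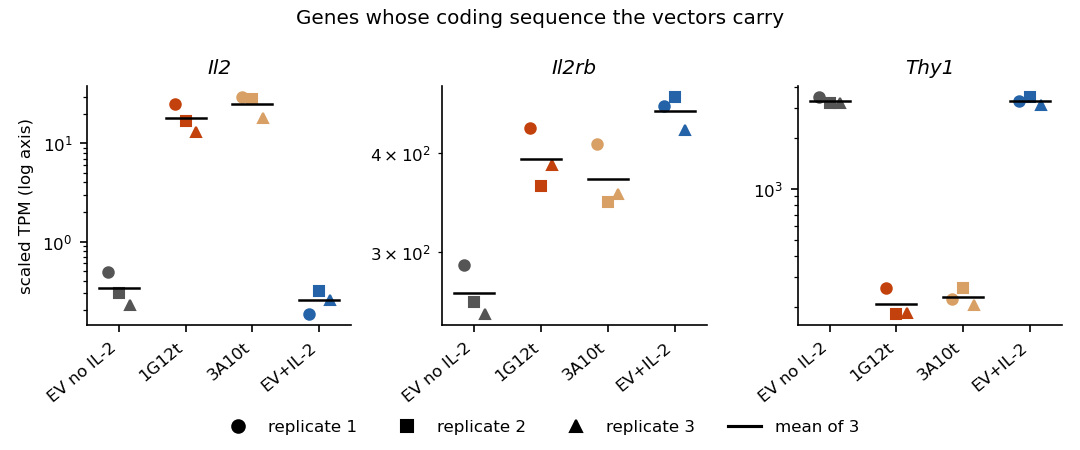
Scaled TPM (log axis, a different range in each panel) of Il2, Il2rb and Thy1 in the 12 libraries; symbols mark the replicate number and bars the mean of 3. The 1G12t libraries lie at 12.9 to 24.9 for Il2 against 0.223 to 0.491 in EV no IL-2, and at 182 to 261 for Thy1 against 3191 to 3475.

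At the adjusted threshold (Benjamini-Hochberg adjusted p under 0.05 over all genes) 3 genes differed, 0.0199% of those tested: Il2 and Gm24155 were higher and Thy1 was lower. Il2 and Thy1 are genes that the vectors carry. The calls of Il2 and Gm24155 are no independent support, since their 1G12t values counted in the filter. At the authors' threshold 170 genes were higher (1.13%) and 34 lower (0.226%) in this fit to TPM. The study, with DESeq2 on counts, reported very few genes for 1G12t at that threshold. The counts given here are not its own. Unadjusted p-values below 0.01 numbered 207, where 150.4 would fall there if no gene differed. The median log2 difference over all genes was -0.0038 and the median 95% interval reached 0.34 to either side, so for a typical gene differences smaller than that lay within the error. Leaving out EV no IL-2 replicate 2 left 95 genes at the authors' threshold in place of 204. The 3 adjusted genes stayed called when any of the 6 libraries was left out, but the adjusted count moved to 9 without EV no IL-2 replicate 2, to 9 without its replicate 3, and to 11, 14 and 10 without 1G12t replicate 1, 2 and 3. Quantile normalization changed the split at the authors' threshold to 96 higher and 65 lower.

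The other contrasts of 1G12t were fitted on the same genes. Against EV+IL-2, 3099 genes differed at the adjusted threshold (20.6%), 1458 higher and 1641 lower in 1G12t, or 2011 higher and 1270 lower with TPM as deposited. Against 3A10t, 642 differed (4.27%), 446 higher and 196 lower, or 1300 higher and 96 lower with TPM as deposited. The latter count was 112, 86 and 47 without 1G12t replicate 1, 2 and 3. These contrasts share the 1G12t libraries with each other and with the main comparison.

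**Figure D2:**
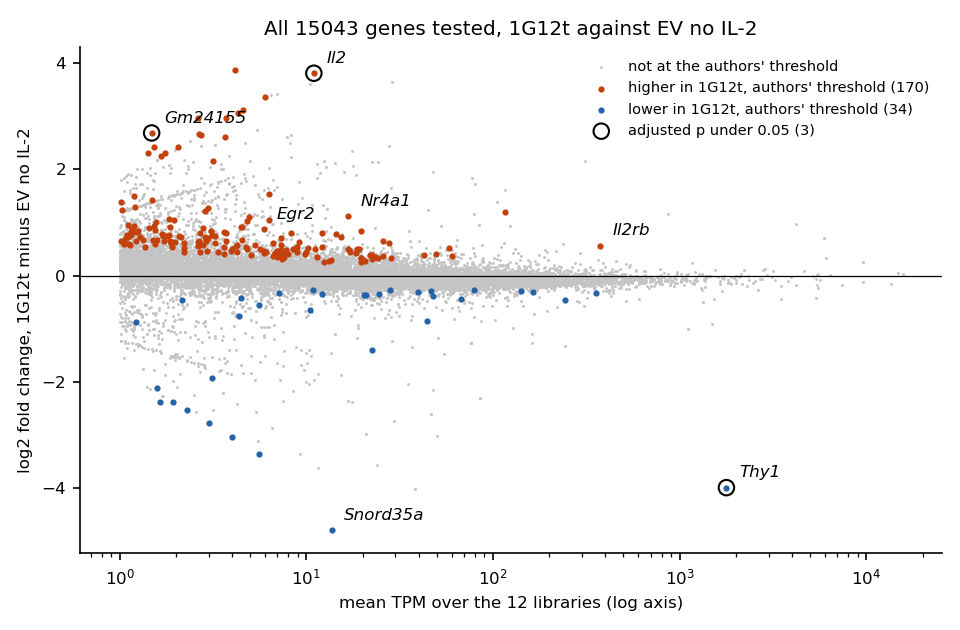
Log2 fold change (1G12t minus EV no IL-2) of the 15043 genes tested against the mean TPM over the 12 libraries (log axis); colours mark the 170 genes higher and the 34 lower at the authors' threshold, and circles the 3 genes with an adjusted p under 0.05. Il2 and Thy1 stand far from the rest at 3.80 and -3.99, while Il2rb, at a mean of 375 TPM, stands out from other genes of its level.

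The 3 libraries of 1G12t were less alike than those of EV no IL-2, and 1G12t replicate 3 stood apart for some genes that matter here. Among the 10042 genes with a mean TPM of 5 or more, 156 lay over 1 log2 unit above the mean of the other 2 libraries in replicate 3 and 112 as far below it, while replicate 1 had 109 and 81 and replicate 2 had 77 and 181. The EV no IL-2 libraries had 57 to 103 above and 57 to 129 below. High in replicate 3 were the immediate early genes Fos and Jun. Low in it was Gzmb, the gene of the cytotoxic protease granzyme B, at 3.33 against 47.2 and 32.9 in replicates 1 and 2. Beside several genes and lists below, the value without this library is given too.

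The labelled cell type was present in all 6 libraries. Foxp3, the defining transcription factor of Tregs, was at 501, 490 and 492 in EV no IL-2 and at 502, 500 and 484 in 1G12t, a log2 difference of 0.00 (95% interval -0.17 to 0.18). The deposited TPM of 6 Treg markers summed to between 1872 and 2078 in EV no IL-2 and between 2004 and 2139 in 1G12t. The 4 B cell markers summed to 15.9 to 19.2 and 14.9 to 29.4 in those groups. Ms4a1, the B cell marker below the filter, was at 0.12 to 0.27 in EV no IL-2 and 0.41 to 0.7 in 1G12t. The 2 CD8 T cell markers summed to 3.71 to 5.35 and 3.77 to 4.90, and the 5 erythroid markers to 1.78 to 2.6 and 2.25 to 3.56. Of the 5 myeloid markers, Cst3, a gene of many cell types, made up nearly all of a sum of 545 to 556 in EV no IL-2 and 482 to 565 in 1G12t. The defining ones were low in both: Lyz2 reached at most 0.38 TPM, S100a8 was at 0 to 0.11 in EV no IL-2 and 0.45 to 0.91 in 1G12t, S100a9 at 0.13 to 0.19 and 0.57 to 1.01, and Csf1r at 0.05 to 0.91 and 0.56 to 1.86. With no filter on low TPM, 1 of 4 B cell and 2 of 5 myeloid markers met the authors' threshold as higher, against 1416 of all 50219 genes. The part of other cells in the results was not tested.

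The feedback genes Cish, Socs1 and Socs2 had overlapping levels with and without the tether. Of the 16 tested genes of the list, which holds the suppressors of cytokine signaling, phosphatases and inhibitors of the MAP kinase pathway, none met the authors' threshold in either direction, against 1.13% and 0.226% of all genes, shares at which a list of this size may well hold none. The libraries did not overlap for 3 of the 16, with Spry1 and Spred2 above and Socs6 below, where 8.68% of all genes lay above and 7.8% below. The median log2 difference was -0.05, and -0.02 without 1G12t replicate 3. Cish, the suppressor most directly induced by STAT5, was at 247, 241 and 234 in EV no IL-2 and at 252, 229 and 297 in 1G12t (log2 difference 0.10, 95% interval -0.10 to 0.30). Socs2, which limits cytokine and growth hormone signaling, was at 619, 616 and 568 against 576, 512 and 574 (-0.12, 95% interval -0.29 to 0.05). Socs1, an inhibitor of JAK kinases, was at 199, 192 and 155 against 201, 163 and 153 (-0.08, 95% interval -0.35 to 0.19). In all 3 genes the groups overlapped, and the intervals left out a change of 0.5 on the log2 scale in either direction. Socs3, at 113, 101 and 55.9 in 1G12t against 87.6 to 108 in EV no IL-2, was low in replicate 3 alone. The widest differences of the list were those of Spry1 (0.59) and Dusp6 (0.49), inhibitors of RAS and ERK signaling, and both were highest in 1G12t replicate 3, with 12.5 against 4.76 and 4.90 for Spry1 and 56.0 against 33.5 and 23.3 for Dusp6. Without that library the differences were 0.18 and 0.16.

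The same genes lay well below the level of cells kept in IL-2. Relative to EV+IL-2, Socs2 was lower by 0.99 on the log2 scale (adjusted p = 1.63e-05), Cish by 0.79 (adjusted p = 2.09e-04) and Socs1 by 1.36 (adjusted p = 4.02e-05), and 8 of the 16 list genes were lower and none higher at the adjusted threshold, where 10.9% of all genes were lower and 9.69% higher. Relative to 3A10t, Socs2 was lower by 0.56 (95% interval -0.73 to -0.39, adjusted p = 0.0102), with 3A10t at 749, 860 and 848, and it was the only gene of the list past the adjusted threshold. That call held in the 6 alternatives run for it, with adjusted p between 0.0144 and 0.0406. Cish did not pass in that contrast (-0.16, adjusted p = 0.269).

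The promoter of Cish is shown because STAT5 acts on this gene through sites near its start. It is the RefSeq window of 250 bases before to 50 after the start (chr9:107296409-107296708, plus strand, GRCm38.p6), with matches to TTCNNNGAA, the core letters bound by STAT5, in capitals.

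Cish: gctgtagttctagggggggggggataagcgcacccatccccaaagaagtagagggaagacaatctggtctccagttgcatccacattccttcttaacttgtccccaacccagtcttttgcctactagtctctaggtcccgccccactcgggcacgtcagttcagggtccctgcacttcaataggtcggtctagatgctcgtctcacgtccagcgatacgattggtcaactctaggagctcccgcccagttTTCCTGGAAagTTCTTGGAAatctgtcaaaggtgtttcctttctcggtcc

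The window held 2 matches 2 bases apart, and the motif reads the same on both strands. At least 1 match was found in 8.33% of the 32544 RefSeq promoter windows of this length, and at least 2 in 0.461%. A match is a description of the letters, and binding was not measured here.

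Among the receptor chains, kinases and STAT factors, Il2rb was the 1 gene of 10 at the authors' threshold, where 1.13% of all genes were higher. Over the 10 genes 5 differences were positive and the median was -0.006. Il2ra, the gene of CD25, was at 402, 434 and 400 in EV no IL-2 and at 434, 396 and 310 in 1G12t (-0.13, 95% interval -0.38 to 0.12), where EV+IL-2 cells held 714, 732 and 654. The common γ chain gene Il2rg differed by -0.02 (95% interval -0.26 to 0.23). Stat5a was at 54.1, 54.1 and 51.4 against 52.3, 54.6 and 55.2, and Stat5b differed by -0.11 (95% interval -0.34 to 0.12). Both STAT5 genes were higher in 1G12t than in EV+IL-2, by 0.67 for Stat5a (adjusted p = 0.00532) and by 0.62 for Stat5b (adjusted p = 0.00203). Jak2 scattered within both groups, from 14.2 to 23.4 in EV no IL-2 and from 8.68 to 19.7 in 1G12t, so its difference of -0.42 had an interval of -1.36 to 0.53, though it was lower in each of the 3 sorts and met the authors' threshold with the replicate block.

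Genes induced by IL-2 in T cells showed no common shift. None of the 39 tested genes of the list met the authors' threshold, 19 differences were positive, and the median was -0.002. That threshold was met by 1.13% of all genes as higher and by 0.226% as lower, so a list may well hold none. Ifitm1, an interferon-induced transmembrane gene of very different level in the IL-2 groups, was at 1.15, 1.48 and 1.05 in EV no IL-2 and at 2.01, 1.23 and 6.06 in 1G12t. EV+IL-2 cells held 71.9, 53.3 and 67.1, so 1G12t was lower by 4.16 on the log2 scale (adjusted p = 1.82e-05). Myc, which drives growth, was at 334, 318 and 286 against 302, 270 and 188 (-0.33, 95% interval -0.66 to -0.00, or -0.13 without 1G12t replicate 3), with 516 to 566 in EV+IL-2. Bcl2, the survival gene named above, was at 121, 135 and 140 against 131, 145 and 193 (0.23, 95% interval -0.11 to 0.56, or 0.07 without 1G12t replicate 3). In the contrast with EV+IL-2, 24 of the 39 genes were lower in 1G12t and none was higher at the adjusted threshold, against 10.9% and 9.69% of all genes, and the median was -0.66. In the contrast with 3A10t only Socs2 of these genes passed, where 4.27% of all genes did.

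**Figure D3:**
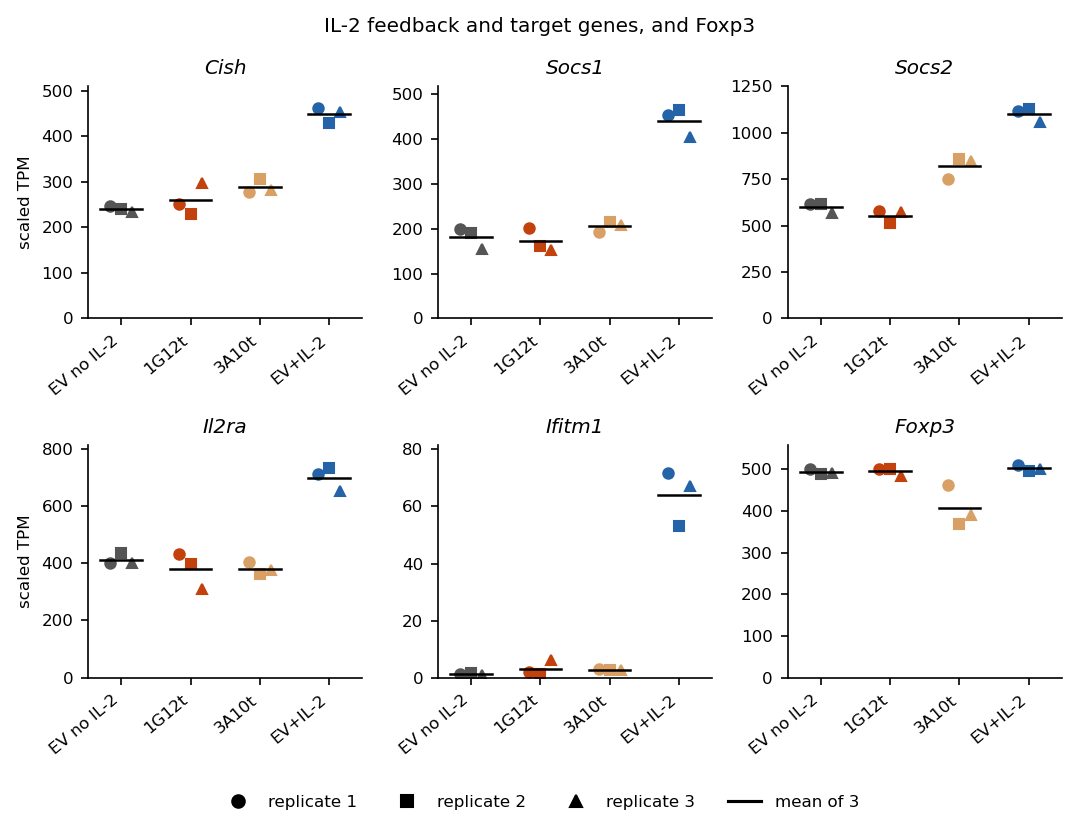
Scaled TPM, on axes that start at 0, of 3 feedback genes (Cish, Socs1, Socs2), 2 genes that are higher with IL-2 (Il2ra, Ifitm1) and Foxp3 in the 12 libraries; symbols mark the replicate number and bars the mean of 3. The 1G12t points sit with EV no IL-2 and below EV+IL-2 in the first 5 panels, and 1G12t lies below 3A10t for Socs2 (512 to 576 against 749 to 860).

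Early genes of T cell receptor stimulation had the highest median of the 15 lists plotted. Of 20 tested, Nr4a1 and Egr2 met the authors' threshold and none was lower there, and 17 differences were positive. The median of 0.38 on the log2 scale compares with -0.0038 over all genes. All 1G12t libraries lay above all EV no IL-2 libraries for 9 of the 20 genes and below for none, where 8.68% of all genes lay above and 7.8% below. At an unadjusted p under 0.05, 8 were higher and none lower, against 5.32% and 1.72% of all genes. No gene of the list passed the adjusted threshold. Without 1G12t replicate 3 the median was 0.09 and 13 differences were positive, with Nr4a1 and Egr2 still called.

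Nr4a1, an orphan nuclear receptor switched on soon after receptor engagement, was at 11.8, 10.3 and 13.8 in EV no IL-2 and at 22.2, 21.6 and 40.6 in 1G12t. The difference was 1.12 on the log2 scale (SE 0.21, 95% interval 0.66 to 1.57, adjusted p = 0.522), and the highest value was again that of replicate 3. Egr2, a zinc finger factor of the same early program, was at 4.44, 4.79 and 6.05 against 8.73, 9.74 and 12.1 (0.87, SE 0.17, 95% interval 0.50 to 1.25, adjusted p = 0.535). For both genes replicates 1 and 2 alone also lay above every EV library, and both met the authors' threshold in all 17 alternatives. Those alternatives were all fits to the same TPM. The study's own list for 1G12t, from its count test, holds neither gene. It holds Fos and Tnfrsf9 as higher, which did not meet the threshold in the main fit here. Against EV+IL-2 Nr4a1 and Egr2 were higher at the adjusted threshold, Nr4a1 by 2.08 (adjusted p = 7.66e-05) and Egr2 by 2.48 (adjusted p = 7.67e-06). Against 3A10t, which held 18.2 to 21.3 for Nr4a1 and 5.9 to 8.6 for Egr2, neither passed. Over the 20 genes of the list, 7 were higher and 3 lower than in EV+IL-2 at the adjusted threshold, with a median of 0.03. In that contrast 9.69% of all genes were higher and 10.9% lower. Relative to 3A10t the median of the list was 0.08, and 1 gene was higher and none lower, where 4.27% of all genes passed.

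The AP-1 genes were highest in a single library. Fos was at 29.995, 27.5 and 396 in 1G12t replicates 1, 2 and 3 and at 13.8, 19.96 and 23.7 in EV no IL-2. Jun was at 60.1, 50.3 and 182 against 56.8 to 58.2, and Dusp1, a phosphatase of the same early response, at 193, 148 and 439 against 164 to 181. Cd69, an early surface marker of activation, was at 76.6, 77.1 and 164 against 65.3 to 70.6. Egr1 was at 10.4, 10.6 and 20.9 against 5.63, 6.57 and 9.75. Tnfrsf9, the gene of the costimulatory receptor 4-1BB, was at 103, 110 and 147 against 90.4, 84.2 and 89.99 (0.42, 95% interval 0.08 to 0.77, or 0.27 without replicate 3). For Fos, Cd69, Egr1 and Tnfrsf9 the groups did not overlap, while for Jun and Dusp1 they did. Why this library was high was not tested.

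**Figure D4:**
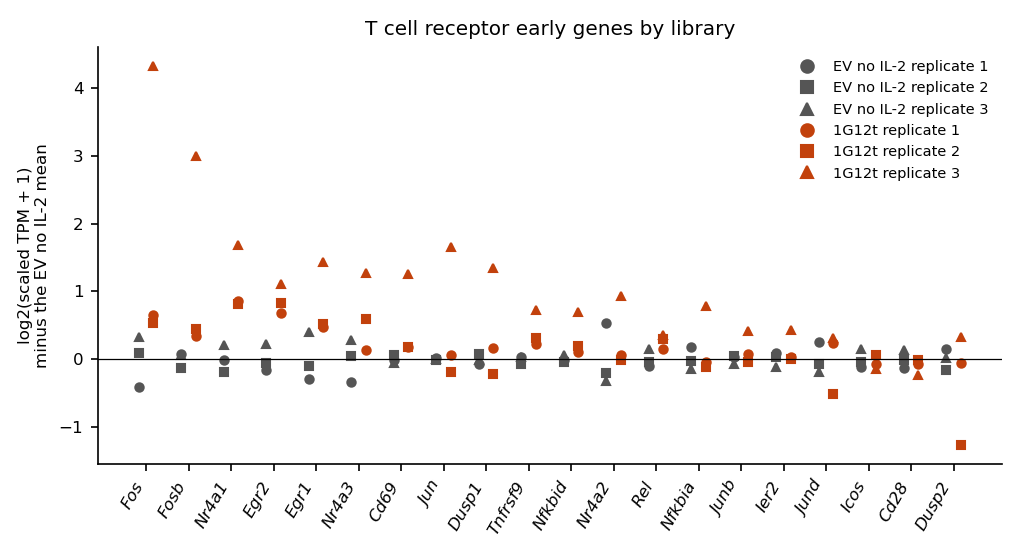
Log2(scaled TPM + 1) of the 20 early genes in each library minus the mean of the EV no IL-2 libraries, ordered by fold change; grey points are EV no IL-2, red points 1G12t, and the symbol gives the replicate. Triangles of 1G12t replicate 3 lead for Fos, Jun and Dusp1, while all 3 red points lie above the grey ones for Nr4a1 and Egr2.

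The promoter of Nr4a1, the gene of this list with the smallest p, is shown as the RefSeq window (chr15:101266596-101266895, plus strand, GRCm38.p6). Capitals mark CGTCA, the half-site of the cAMP response element, searched on both strands.

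Nr4a1: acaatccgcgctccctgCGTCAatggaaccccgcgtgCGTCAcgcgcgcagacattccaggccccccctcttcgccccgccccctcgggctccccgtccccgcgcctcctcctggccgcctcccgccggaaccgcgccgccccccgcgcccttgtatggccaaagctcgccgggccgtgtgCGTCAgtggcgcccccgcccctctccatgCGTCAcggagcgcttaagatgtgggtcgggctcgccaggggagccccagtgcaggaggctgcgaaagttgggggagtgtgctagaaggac

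The window held 4 matches that do not overlap. At least 1 match was present in 20.9% of the 32544 windows and at least 4 in 0.234%.

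A few further genes at the authors' threshold are named here after their values were seen, and they were not tested as a group. Nab2, a repressor of EGR factors that they induce, was at 24.7, 25.7 and 29.8 in 1G12t and at 21.6, 20.6 and 18.3 in EV no IL-2. Fasl, the death ligand, was at 8.03, 7.62 and 7.03 against 4.46, 5.67 and 6.20. The chemokine gene Ccl1 was at 2.19, 9.23 and 12.4 against 0.855, 0.633 and 0.613, and Ccl3, another chemokine gene, at 1.58, 1.49 and 3.43 against 0.836, 0.555 and 0.632. None overlapped between the groups and none passed the adjusted threshold. Ccl1 and Ccl3 were below 1 in every EV no IL-2 library, and their 1G12t values counted in the filter on mean TPM. Their calls are thus no independent support. Ccl3 lost the authors' threshold without 1G12t replicate 3, when any EV no IL-2 library was left out and with the replicate block. In the list of T helper and effector genes, Ccl3 was the only one of 12 tested at the authors' threshold. Over all genes 1.13% were higher there and 0.226% lower. The list's median of 0.14 was 0.04 without 1G12t replicate 3, 0.02 without EV no IL-2 replicate 3, -0.02 without 1G12t replicate 2 and -0.15 among its 9 genes averaging 5 TPM or more.

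None of 24 tested Treg identity genes and none of 16 suppression genes met the authors' threshold, met by 1.13% of all genes as higher and 0.226% as lower. The medians were 0.0005 and -0.04, and 0.004 and 0.03 without 1G12t replicate 3, when 1 suppression gene met it. Without overlap, 3 identity genes lay above and 3 below, and 2 suppression genes above and none below. Over all genes the shares without overlap were 8.68% above and 7.8% below. Ctla4, the inhibitory receptor, was at 185, 200 and 209 in EV no IL-2 and at 198, 211 and 188 in 1G12t (0.00, 95% interval -0.24 to 0.25). Ikzf2, which encodes Helios, was at 131, 145 and 162 against 150, 178 and 296, a difference of 0.45 (95% interval -0.09 to 0.99) that was 0.16 without replicate 3. Tigit, an inhibitory receptor, was at 29.9, 25.6 and 31.9 against 35.3, 34.4 and 37.1 (0.29, 95% interval 0.00 to 0.57). Bach2, which restrains effector differentiation, was at 22.1, 21.1 and 24.1 against 28.2, 29.1 and 33.2 (0.41, 95% interval 0.11 to 0.71). Tigit and Bach2 did not overlap between the groups, their adjusted p was 0.703 and 0.684, and neither met the authors' threshold. Bach2 met it with the replicate block, with quantile normalization, with protein-coding genes only, and with the 6 libraries alone, blocked or not. The cytokine Il10 was at 11.96, 8.81 and 10.4 against 15.4, 15.3 and 1.83, high in 2 of the 1G12t cultures and low in replicate 3.

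The endocytosis, degradation and silencing lists, which the study's questions concern, held no gene at the authors' threshold. Over all genes 1.13% were higher there and 0.226% lower, shares at which lists of this size may well hold none. The 39 endocytic and lysosomal genes had a median of -0.11, or -0.06 without 1G12t replicate 3, with 12 positive differences. Without overlap, 2 of them lay above and 6 below, where 8.68% of all genes lay above and 7.8% below. Clathrin adaptor gene Ap2m1 was at 442, 461 and 414 in EV no IL-2 and at 452, 422 and 406 in 1G12t (-0.04, 95% interval -0.23 to 0.15). Picalm, which encodes a clathrin assembly protein, had the highest positive difference, at 25.2, 25.4 and 31.7 in 1G12t against 17.6, 21.6 and 20.0 in EV no IL-2 (0.45, 95% interval 0.03 to 0.88), without overlap. The largest negative ones were those of lysosomal genes, and they were uneven over the cultures. Cathepsin gene Ctsl was at 31.5, 28.7 and 27.0 against 21.9, 24.3 and 11.8 (-0.62, 95% interval -1.08 to -0.17), and Ctsd at 456, 466 and 443 against 437, 395 and 247 (-0.38, 95% interval -0.76 to -0.00). Ctsl met the authors' threshold without 1G12t replicate 2, and among protein-coding or better expressed genes alone, and Ctsd without replicate 1. Without 1G12t replicate 3 the differences were -0.32 and -0.13. Lamp1, a lysosomal membrane gene, was at 342, 191 and 184 against 337 to 351. Among 30 silencing factors the median was -0.06, or -0.03 without 1G12t replicate 3, and 4 lay above and 2 below without overlap. Dnmt1, the maintenance DNA methyltransferase, was at 29.4, 33.3 and 34.9 against 32.7, 33.2 and 32.3, and Hdac1, a histone deacetylase, differed by -0.06 (95% interval -0.23 to 0.11). Tet2, which oxidises methylated DNA, was at 20.1, 20.6 and 22.6 against 24.7, 27.2 and 38.2 (0.47, 95% interval 0.11 to 0.83, or 0.29 without 1G12t replicate 3), with no overlap, and met the authors' threshold with the replicate block and without 1G12t replicate 1.

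The lists of cell death and of the cell cycle held few genes at the authors' threshold. It was met by 1.13% of all genes as higher and by 0.226% as lower. Of 14 BCL2 family genes none met the authors' threshold and the median was 0.09, or -0.003 without 1G12t replicate 3. The proapoptotic effector gene Bax was at 483, 482 and 434 against 467, 449 and 578 (0.09, 95% interval -0.23 to 0.41), and Bak1 at 3.01, 2.13 and 1.76 against 4.56, 2.94 and 3.38 (0.49, 95% interval 0.11 to 0.87). Bak1 met the authors' threshold with TPM as deposited, with protein-coding genes only, and without EV no IL-2 replicate 1 or 1G12t replicate 2. Of 46 cell cycle genes, Top2a and Tk1 met the authors' threshold as higher and none as lower. The median of the 46 was 0.02, or 0.09 without 1G12t replicate 3. Without overlap, 7 of them lay above and 3 below, where 8.68% of all genes lay above and 7.8% below. Top2a, the DNA topoisomerase of dividing cells, was at 7.24, 7.96 and 7.53 against 9.78, 9.24 and 10.1 (0.32, 95% interval 0.11 to 0.53), and Tk1, thymidine kinase, at 7.86, 6.597 and 8.24 against 11.5, 9.15 and 12.9 (0.50, 95% interval 0.15 to 0.85). Both lay far below EV+IL-2, by 2.53 for Top2a (adjusted p = 3.14e-07) and 1.87 for Tk1 (adjusted p = 2.55e-05), a contrast in which 40 of the 46 genes were lower and 1 was higher, against 10.9% and 9.69% of all genes. Both lost the authors' threshold with the replicate block, when any EV no IL-2 library was left out, and without 1G12t replicate 1 or 3, and Top2a also without 1G12t replicate 2.

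The remaining lists gave no gene at the authors' threshold, which 1.13% of all genes met as higher and 0.226% as lower. The medians were 0.06 for 27 PI3K, AKT and mTOR genes, -0.07 for 30 genes of endoplasmic reticulum stress, 0.02 for 31 interferon genes, -0.10 for 20 glycolysis genes and -0.12 for 21 genes of quiescence. Without 1G12t replicate 3 they were -0.02, -0.03, -0.01, -0.06 and -0.08. Among them Hspa5, the chaperone that rises under endoplasmic reticulum stress, differed by 0.02 (95% interval -0.23 to 0.27). Il7r, the IL-7 receptor gene, was at 148, 169 and 173 in EV no IL-2 and at 163, 181 and 217 in 1G12t, and was higher in 1G12t than in EV+IL-2 by 1.60 (adjusted p = 8.25e-05).

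**Figure D5:**
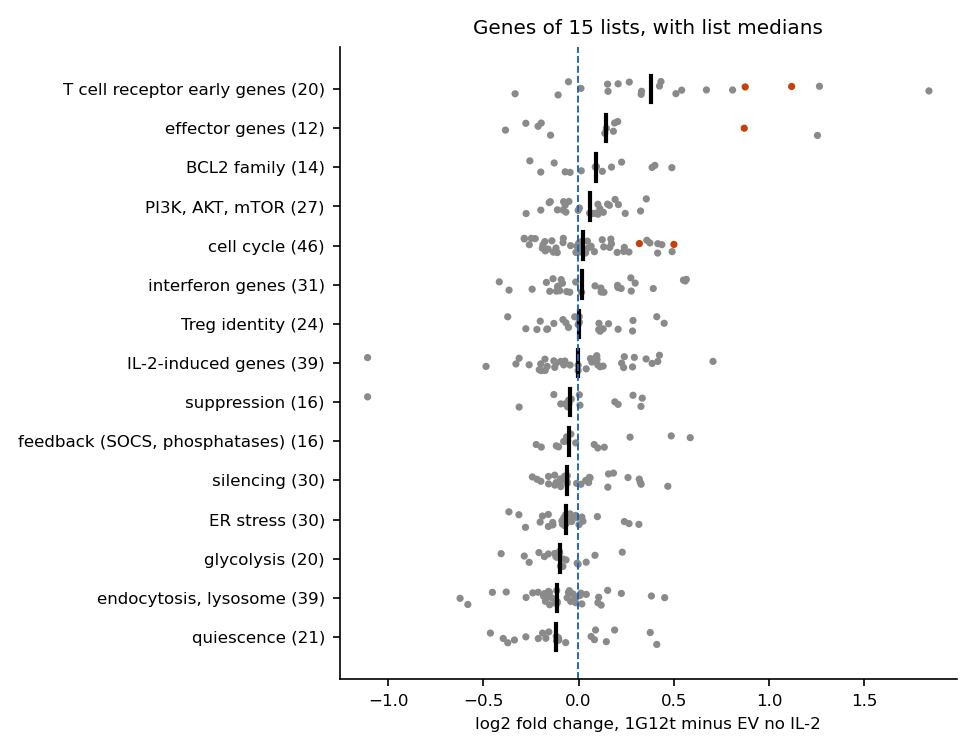
Log2 fold changes (1G12t minus EV no IL-2) of the tested genes of 15 lists, with the number tested in brackets; each point is a gene, red points met the authors' threshold, black bars are list medians and the dashed line is the median of all genes (-0.0038). The T cell receptor early genes have the highest median (0.38), and the medians of the other lists lie between -0.12 and 0.14.

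Gm24155, the gene called beside the vector genes, is annotated as a miRNA gene (ENSMUSG00000093000.1, chr3:118434721-118434830, plus strand, GRCm38). It was listed at 0 in all 9 libraries of the other groups and at 6.76, 6.21 and 3.71 in 1G12t (adjusted p = 0.00144). Its mean of 1.48 TPM over the 12 libraries came from 1G12t alone, so it entered the test only through the group in which it is high, and this p is no independent support. Its transcript of 110 bases is printed because TPM is per length, so few reads over so short a transcript give such values, and the number of reads is unknown.

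Gm24155: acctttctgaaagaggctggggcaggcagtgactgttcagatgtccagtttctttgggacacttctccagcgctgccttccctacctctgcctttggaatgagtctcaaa

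The transcript lies in an exon of the long noncoding gene Gm9916 on the same strand, 792 bases from Mir137, and within Gm26871. As deposited, Gm9916 was at 0.18, 0.13 and 0.28 TPM in 1G12t and at 0.1, 0.08 and 0 in EV no IL-2, and Gm26871 at 0.37, 0.68 and 0.61 against 0.13, 0.13 and 0.23, while Mir137 was listed at 0 in every library. The cDNA was primed with oligo(dT), and a mature miRNA was not measured by it. The gene passed the adjusted threshold in 12 of the 15 alternatives in which it was tested.

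The other genes with the smallest p among well expressed ones were of mixed kind. Higher in 1G12t were Lama5, a laminin chain, at 14.2, 12.5 and 17.8 against 6.85, 8.95 and 8.94 in EV no IL-2 (0.77, 95% interval 0.43 to 1.11), and Htt, the huntingtin gene, at 10.3, 10.1 and 12.1 against 7.15, 6.71 and 7.62 (0.54, 95% interval 0.30 to 0.77). Map1b, a microtubule-associated protein gene, was at 7.60, 6.51 and 7.32 against 4.54, 4.06 and 4.33, and Snhg12, a snoRNA host gene, at 11.2, 10.4 and 11.9 against 8.34, 8.62 and 7.72. Psd, at 9.48, 9.33 and 10.6 against 5.66 to 7.41, and Inka2, at 5.49, 4.82 and 6.43 against 3.73 to 3.83, complete the group. Lower were Fam76a, at 39.4, 42.2 and 36.4 against 51.1, 53.9 and 49.4 (-0.38, 95% interval -0.55 to -0.21), and Crlf3, a cytokine receptor-like factor gene, at 351, 332 and 299 against 426, 405 and 401 (-0.33, 95% interval -0.50 to -0.16). Snord35a, a small nucleolar RNA gene, was listed at 0 in the 1G12t libraries and at 27.3, 38.8 and 17.8 in EV no IL-2. None of these passed the adjusted threshold, with adjusted p between 0.535 and 0.684.

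Of the 10 lower genes named by the rule, Thy1 among them, 6 were pseudogenes, Ywhaq-ps3, Rps13-ps4, Ppp1r2-ps4, Rpl23a-ps3, Rpl30-ps9 and Rpl18-ps2. Among the 1316 pseudogenes tested, 9 were lower at the authors' threshold (0.684%) and 15 were higher (1.14%). The shares over all genes were 0.226% and 1.13%. Ywhaq-ps3 was at 10.2, 11.8 and 8.55 against 30.4, 34.6 and 21.8, and Rpl30-ps9 at 185, 193 and 192 against 261, 250 and 269. Such copies share reads with their parent genes, and their values are uncertain.

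The higher genes leaned to weakly expressed transcripts and, among protein-coding genes, to long ones, though not evenly over the length classes. Of 1992 protein-coding genes with 8000 or more exonic bases 2.11% were higher at the authors' threshold and 0.0502% lower, and of 1172 with 1000 to 2000 bases 0.512% and 0.256%. The 105 protein-coding genes higher there had a median of 6903 exonic bases, against 4463 for all 11032 tested and 3088 for the 15 lower. The median difference of the longest class from the EV no IL-2 mean was 0.03, 0.06 and 0.16 in 1G12t replicates 1, 2 and 3 and -0.05, -0.00 and 0.07 in the EV libraries. By level, 2.1% of genes at 2 to 5 TPM were higher and 0.111% of those at 50 TPM or more. Long noncoding genes, with a median of 1786 exonic bases, had a median difference of 0.17, and 2.32% of them were higher. More genes were listed above 0 in the 1G12t libraries (42088 to 43285) than in EV no IL-2 (37930 to 42150), with overlap. Lama5, Htt and Map1b are of the longest class, with 11388, 24438 and 15846 exonic bases, and the part of length, level and genes detected in their differences was not tested.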

How the data were processed

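RNA-seq was made from oligo(dT)-primed, amplified full-length cDNA and read as paired ends. Per the labels and the study's methods, the authors trimmed reads with Cutadapt 1.18, aligned them to mm10 (GRCm38) with STAR 2.5.3 and quantified genes with RSEM 1.3.0. The deposited table gives TPM per gene symbol in 12 libraries, relative to transcript length and library total. It holds no counts, so the depth and the counting error are unknown, and the count test of the authors, DESeq2 1.26, was not rerun. Positions, types and exon lengths came from GENCODE M21 on GRCm38, where 53462 of 55228 symbols matched once, which is not the release the authors used. Promoters came from RefSeq (GRCm38.p6).

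TPM was divided by a median-of-ratios factor over genes above 0 in every library. Genes averaging 1 TPM or more were tested on log2(scaled TPM + 1), the pseudocount being 1, with limma 3.58.1 in R 4.3.3 (eBayes with trend, 1 mean per group, all 12 libraries, two-sided). Fold changes are on that scale and understate changes of low genes. Calls used an unadjusted p under 0.01 with a log2 difference beyond 0.25 (the authors' threshold) or a Benjamini-Hochberg adjusted p under 0.05. The code was tested on simulated data.

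The text names all genes of the vector, receptor and feedback lists; in each other list the 3 genes with the smallest p and the 3 with the highest TPM; all genes past the adjusted threshold; and the 10 with the smallest p each way among those at the authors' threshold that averaged 5 TPM or more and did not overlap between groups. From this set some are given only in counts. Some results are not reported here. The comparison, lists and rule were chosen with earlier results of these data known. Genes outside the rule that are named illustrate a list or were chosen after their values were seen.

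Replicate numbers mark the shared sort and activation, per the labels, so same-numbered libraries are paired. Their deviations from the group means correlated at 0.0048, 0.065 and 0.063 over genes. Alternatives were other pseudocounts, filters, scalings, the replicate block, protein-coding genes only, the 6 libraries alone and leaving out each of them.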

Additional observations from a re-analysis of the deposited data

How the results depend on the processing

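Main values were 204 genes at the authors' threshold, 3 at the adjusted one, 3099 against EV+IL-2 and 642 against 3A10t. The first became 1482 with no filter on low TPM, 74 among genes averaging 5 TPM or more, and 95 to 282 when a library was left out. Protein-coding genes only gave 195 higher and 14 lower. The adjusted count became 13 with no filter, 5 with the 6 libraries alone and 4 to 14 when a library was left out. Leaving out 1G12t libraries gave 2348 to 2636 genes against EV+IL-2 and 47 to 112 against 3A10t, where TPM as deposited gave 1396. With the replicate block in the fit of all 12 libraries, which pairs them by sort, there were 305 genes at the authors' threshold and the same 3 at the adjusted one, and 987 against 3A10t, and among the named genes it took the authors' threshold from Top2a, Tk1 and Ccl3 and gave it to Bach2, Tet2, Trib3 and Jak2. A replicate block on the 6 libraries alone, added after the data were seen, left 0 adjusted genes (190 at the authors' threshold), with Il2 at 3.86 (adjusted p = 0.369) and Thy1 at -3.98 (adjusted p = 0.242); that fit has few residual degrees of freedom. Il2, Il2rb and Thy1 kept their direction in all 17 alternatives, Il2 between 2.09 and 5.38. Of the 24 named genes at the authors' threshold none changed sign, and of the 103 others 36 did in at least 1 alternative. Where no cause is given, the cause was not tested. Depth limits cannot be given from TPM.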
